A study of Mus musculus with 8 samples.

Results

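The genes of the mouse nucleosome remodelling complexes were compared across 1 embryonic stem cell (ESC) line and 4 secondary induced pluripotent stem cell (iPSC) lines by RNA-Seq. They were the 41 of 22878 gene rows whose names are Smarca to Smarce, Arid1a, Arid1b, Arid2, a numbered Chd gene, Ino80 and its named subunits, Baz1a to Baz2b, Bptf, Ep400, Actl6a, Actl6b, Ruvbl1 or Ruvbl2. By complex, 14 belonged to BAF, 7 to ISWI, 9 to CHD and 8 to INO80. Smarcad1 and Smarcal1, which encode 2 further remodelling enzymes, and the pseudogene Smarca5-ps made up the rest. Srcap, which the same name pattern covers, was not analysed here. R1, the ESC line, had 2 libraries, as did the iPSC lines 16-6 (from c-Kit hematopoietic progenitors of bone marrow, mesoderm) and 32 (from adipocyte progenitors, mesoderm). Lines S8 (from epidermal cells, ectoderm) and T2 (from stomach lining cells, endoderm) had 1 library each. The somatic cells came from 8-week-old all-iPSC mice, made by tetraploid complementation from an iPSC line with doxycycline-inducible Oct4, Sox2, c-Myc and Klf4, and doxycycline was withdrawn once the secondary iPSCs had formed. Each iPSC line is a single line, so a difference between origins and a difference between lines cannot be told apart. All lines, R1 included, were grown with LIF on mitotically inactivated mouse embryonic fibroblasts.

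Remodelling complexes use the energy of ATP to slide, evict or exchange nucleosomes, the DNA-wrapped histone units of chromatin. BAF is the mammalian SWI/SNF complex, and in ESCs it is built around the ATPase BRG1 (Smarca4) with BAF155 (Smarcc1), whereas differentiated cells use more of the paralogues BRM (Smarca2) and BAF170 (Smarcc2). ISWI enzymes space nucleosomes evenly, CHD enzymes read methylated histones or join histone deacetylases in the NuRD complex, and INO80 and EP400 exchange histone variants.

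Levels are given as FPKM, in which a fragment count is divided by transcript length and library size, brought to a common scale, so that they can be compared between genes. A difference is given on the scale of log2(FPKM + 1), which understates the change of low genes. A member is said to differ, to be higher or to be lower where limma gave a Benjamini-Hochberg adjusted p under 0.05 over all genes tested, and folds are on the same scale. Each library held an implied 15.5 to 16.7 fragments in units of 1000000, as estimated from the confidence limits of its values. The study's read table lists S8 and T2 with several times the reads of the other libraries and a smaller share of unique alignments. The part of this in the results of S8 and T2 was not tested. Nothing in the labels ties the 2 libraries of a line to separate cultures, although the study's methods call them biological replicates, so the p-values measure the spread between these libraries. S8 and T2 are assumed to vary as the replicated lines do. The labels name embryo as the tissue of every library. All 8 pluripotency markers were present in all libraries, with Pou5f1 (Oct4) between 485 and 1020.2 FPKM. The 12 fibroblast markers, such as collagen genes, summed to 1089 and 1204 FPKM in R1, 2080 and 2102 in 16-6, 95.1 and 95.9 in 32, 488 in S8 and 645 in T2, and none was listed at 0.

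Of the 41 members, 40 reached an FPKM of 1 in at least 1 library and were tested. Actl6b, the neuronal counterpart of Actl6a, was the exception, with at most 0.134 FPKM and 3 implied fragments in any library. Ranks of the members were much alike in all lines, with Spearman's rho across the 41 genes from 0.961 for R1 and S8 to 0.982 for 16-6 and 32, beside 0.949 to 0.971 across all 22878 rows. Replicates of a line differed by a median of 0.04 in log2(FPKM + 1) for R1 and 16-6 and by 0.07 for 32. The widest replicate gap was 0.20 for Smarcd3 in line 32.

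All 40 tested members differed somewhere among the 5 lines by limma's F test, as did 88.4% of all genes. The lines' means of 9 members spanned at least 2-fold, a share below that of all genes (34.5%). These 9 were Smarca2 and Smarcd3 of BAF, Baz1a and Baz2b of ISWI, Chd2, Chd3 and Chd9 of CHD, and Ino80d and Ino80e of INO80. The 4 comparisons with R1 share its 2 libraries. Of 40 members, 25 differed in 16-6 (55.6% of all genes), 10 of them higher (25.7%) and 15 lower (29.9%). In 32, 31 differed (61.5%), with 20 higher (28.6%) and 11 lower (32.9%). S8 had the most, 35 (66.7%), with 13 higher (32.1%) and 22 lower (34.6%). In T2, 26 differed (57.9%), with 17 higher (27.0%) and 9 lower (30.9%). When the 4 iPSC lines were averaged, 30 differed from R1 (65.0%), with 16 higher (29.9%) and 14 lower (35.2%).

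With each library scaled instead to its own total FPKM, genes under 300 bases left out, the median of all genes moved from -0.02 to -0.20 in 32 and from -0.03 to -0.24 in S8. The split of the members moved with it, from 20 higher and 11 lower to 13 and 14 in 32, from 13 and 22 to 8 and 26 in S8 and from 16 and 14 to 12 and 20 in the iPSC mean. In 16-6, the 10 higher and 15 lower became 16 and 14 with median-of-ratios size factors. Relative to the median of all genes, the median of the members stood at 0.16 in 32 and -0.19 in S8 on the common scale, and at 0.15 and -0.23 on the own totals.

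At least 2-fold differences were few. None of the 25 in 16-6 reached 2-fold (7.11% of all genes did), the largest difference being 0.87 for Baz1a. In that line 29 members had an unadjusted p under 0.05 in limma, whatever the size of the difference. The matching share of all genes at that unadjusted p is not given here, and after adjustment it was 55.6%. The 2-fold counts were 2 in 32 (9.77%), 5 in S8 (16.7%), 1 in T2 (10.5%) and 1 in the iPSC mean (6.41%). Among the 32 members with a mean of at least 10 FPKM over the libraries, the 2-fold counts against R1 were 0 in 16-6 (4.63% of all genes at that level), 0 in 32 (5.59%), 0 in T2 (7.86%), 0 for the iPSC average (4.37%) and 3 in S8 (15.4%). Between 16-6 and 32 there was none (6.98%), and between S8 and T2 there was 1 (2.49%).

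**Figure D1:**
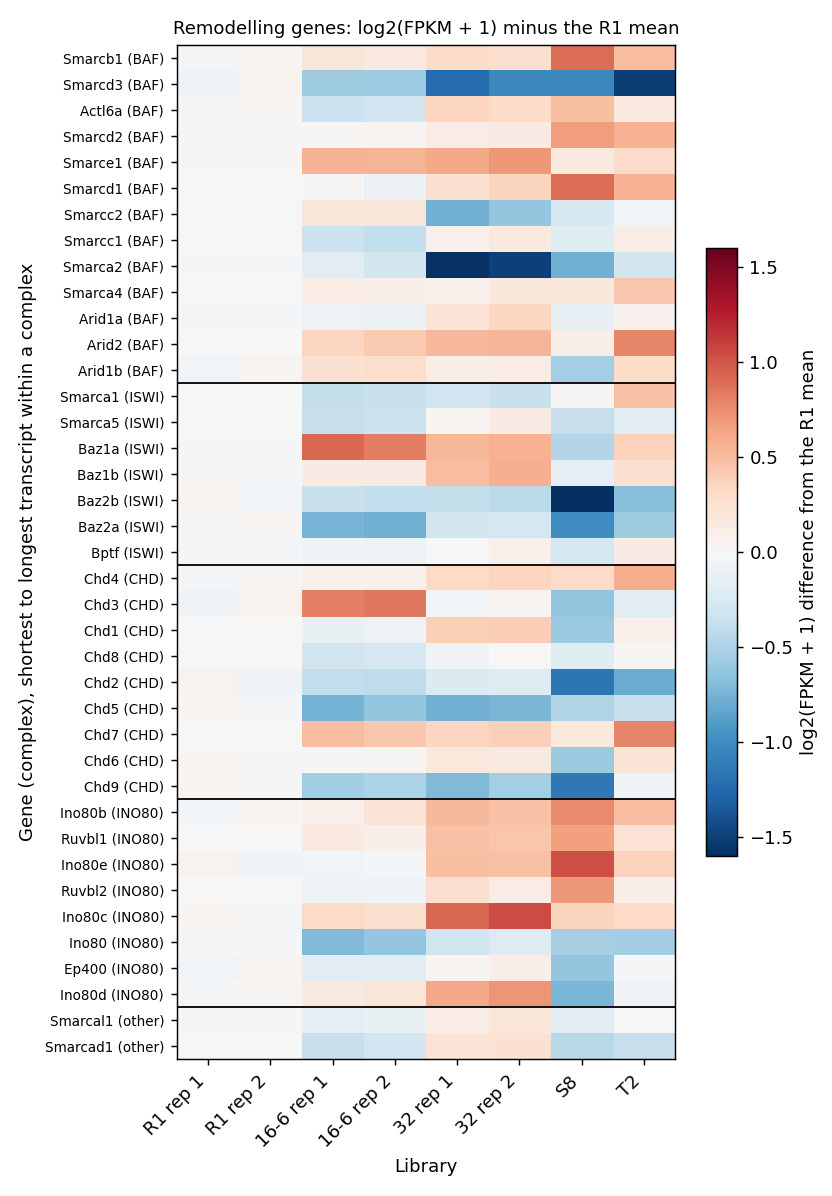
Heat map of log2(FPKM + 1) minus the mean of R1 for 39 remodelling genes (rows, grouped by complex and ordered by transcript length) in the 8 libraries (columns), with red above and blue below R1 and the colours saturating at 1.6. Smarcd3 is blue in all 6 iPSC libraries, Smarca2 is deepest in both libraries of 32, and in S8 short transcripts are mostly red and long ones mostly blue.

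Within BAF, the core subunits were abundant in every line. Means over the 5 lines were 76.97 FPKM for the ATPase Smarca4, 109 for the scaffold Smarcc1, 94.6 for Smarcb1, 66.3 for Smarce1, 132 for the actin-related Actl6a and 91.7 for Arid1a, the DNA-binding subunit that defines one form of the complex. Arid1b, its paralogue, stood at 6.70 FPKM and Arid2, of the alternative PBAF form, at 35.1. The paralogues Smarca2 and Smarcc2 were far below their partners, at 1.92 and 11.9 FPKM. Of the 3 Smarcd subunits, which bridge the complex to transcription factors, Smarcd1 averaged 90.9, Smarcd2 41.6 and Smarcd3 4.25 FPKM. Thus the paralogue that was high in R1 was the high one in every iPSC library as well, and the ratio of Arid1a to Arid1b ranged from 10.7 in 16-6 to 19.9 in S8.

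Smarcd3 (BAF60C, a subunit known from heart and muscle, at mm9 chr5:24098440-24107820) gave the most frequent 2-fold difference, in 3 of the 4 iPSC lines. It measured 7.49 and 8.21 FPKM in the R1 libraries, 4.94 and 4.90 in 16-6, 2.77 and 3.33 in 32, 3.32 in S8 and 2.12 in T2. Every iPSC library lay below both R1 libraries, and the 2 libraries of 16-6 lay above the other iPSC libraries. Against R1 the difference was -0.58 (SE 0.0907, limma adjusted p = 0.00480) in 16-6, -1.13 (SE 0.0907, adjusted p = 0.000510) in 32, -1.03 (SE 0.111, adjusted p = 0.000958) in S8 and -1.51 (SE 0.111, adjusted p = 0.000596) in T2. Averaged over the iPSC lines it was 2.09-fold lower than R1 (-1.06, SE 0.0752, adjusted p = 0.000319), and all 6 iPSC libraries showed this direction. It rested on 53.0 to 235 implied fragments per library. In the GENCODE annotation 54.3% of its exon bases lie opposite Chpf2, and without strand in the reads the 2 genes cannot be fully told apart. Chpf2 itself measured 14.2 and 15.6 FPKM in 16-6, against 5.80 and 6.59 in R1 and 2.56 to 7.42 in the other libraries. Without S8 and T2, or after quantile normalization, the iPSC average was no longer 2-fold from R1 for any member, and after the latter Smarcd3 was 2-fold from R1 in T2 alone.

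Smarca2 (mm9 chr19:26679650-26852811), the BRM ATPase, was lowest in line 32. Its level was 3.08 and 3 FPKM in R1, 2.61 and 2.30 in 16-6, 0.354 and 0.435 in 32, 1.38 in S8 and 2.31 in T2. Both libraries of 32 lay under every other library. The difference of 32 from R1 was -1.54 (SE 0.0791, limma adjusted p = 0.000149), a 2.90-fold lower level, and S8 was lower as well (-0.76, SE 0.0969, adjusted p = 0.00165). In 16-6 and T2 the differences were -0.23 (adjusted p = 0.0601) and -0.29 (adjusted p = 0.0522). As the level is low, 15.6 to 185 implied fragments per library, the size of the difference in 32 moved from -1.15 to -2.67 over the alternative settings. Smarca4 moved little by comparison, with 67.8 and 68.1 FPKM in R1, 74.1 and 72.4 in 16-6, 72.0 and 77.3 in 32, 76.9 in S8 and 92.1 in T2. It was higher than R1 in T2 (0.43, SE 0.0555, adjusted p = 0.00252) and in S8 by 0.18 (adjusted p = 0.0378), the latter turning to -0.05 and -0.08 under quantile and own-total scaling. With the median of all genes of like transcript length subtracted, an alternative chosen after seeing the data, the S8 difference was 0.64. The ratio of Smarca4 to Smarca2 was 22.4 ± 0.505 (SD, n = 2) in R1, 29.9 ± 2.15 (SD, n = 2) in 16-6 and 191 ± 18.2 (SD, n = 2) in 32. S8 and T2, with 1 library each, had ratios of 55.8 and 39.9.

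Smarcc2, the BAF170 scaffold, was also lowest in 32. It measured 13.2 and 13.0 FPKM in R1, 15.1 and 15.1 in 16-6, 7.31 and 8.22 in 32, 10.9 in S8 and 12.8 in T2. Against R1, 32 was lower (-0.69, SE 0.0634, limma adjusted p = 0.000755) and 16-6 stood at 0.19 (SE 0.0634, adjusted p = 0.0519). Its partner Smarcc1 was lower in 16-6 (88.9 and 85.8 FPKM, against 113 and 112 in R1), at -0.37 (SE 0.0426, adjusted p = 0.00186). In consequence the ratio of Smarcc1 to Smarcc2 was lowest in 16-6, at 5.78 ± 0.153, and highest in 32, at 15.8 ± 0.688 (SD, n = 2 each), with R1, S8 and T2 between 8.60 and 9.63. Smarcd1, by contrast with Smarcd3, was higher in 3 iPSC lines. In 32 this did not pass the test under every alternative, and the difference fell as low as 0.10. Smarcd1 measured 69.3 and 69.0 FPKM in R1, 70.2 and 64.6 in 16-6, 82.9 and 89.2 in 32, 129 in S8 and 102 in T2. Its difference from R1 was 0.31 (SE 0.0580, adjusted p = 0.00744) in 32, 0.89 (SE 0.0710, adjusted p = 0.000390) in S8 and 0.56 (SE 0.0710, adjusted p = 0.00244) in T2. The Smarcd1 to Smarcd3 ratio therefore ranged from 8.82 ± 0.604 in R1 through 13.7 ± 0.712 in 16-6 and 28.3 ± 2.24 in 32 (SD, n = 2 each) to 39.0 in S8 and 48.4 in T2. The ratio of Smarcd1 to Smarcd2 stayed between 1.97 and 2.41 in all lines.

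**Figure D2:**
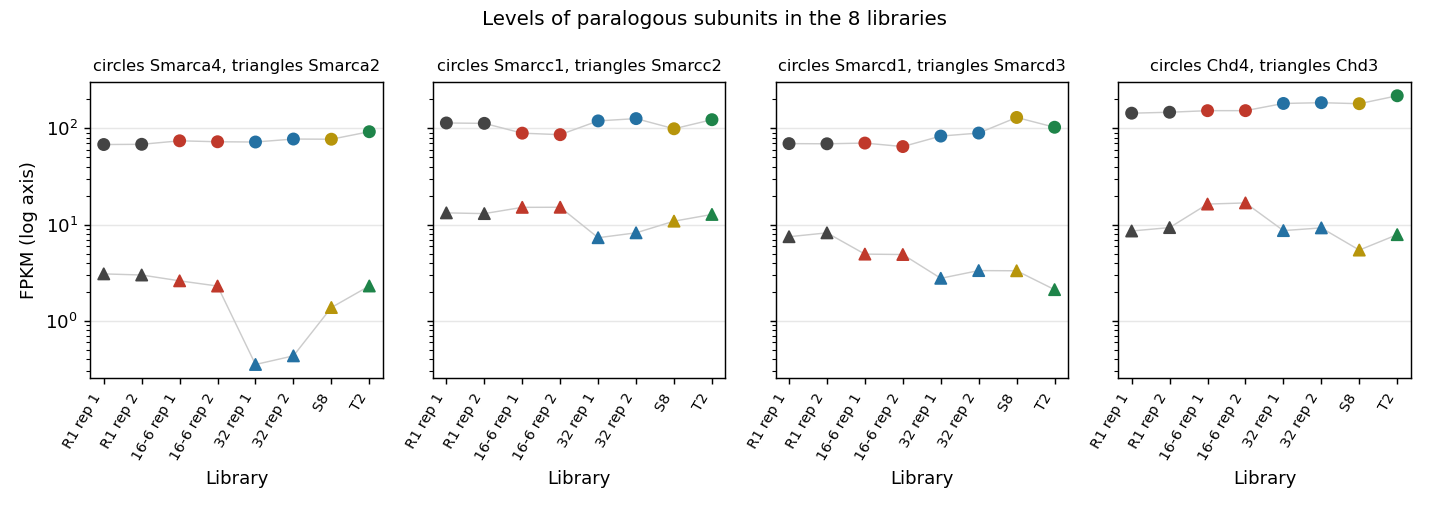
FPKM on a log axis of 4 pairs of paralogous subunits in the 8 libraries, with 1 point per library, circles for the abundant partner and triangles for the low one. The circles stay above the triangles in every library, and the triangles of Smarca2 fall from 3 and 3.08 in R1 to 0.354 and 0.435 in 32.

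The start regions of these 2 pairs are shown because the partners differ in level within every line while the low partner varies more between lines. Each sequence is 300 bases, 250 before and 50 after the annotated start, from RefSeq on GRCm38.p6, read 5′ to 3′ on the strand of the gene, with capitals marking CG dinucleotides. The windows are chr9:21615919-21616218 (plus strand) for Smarca4, chr19:26604910-26605209 (plus) for Smarca2, chr15:99702037-99702336 (plus) for Smarcd1 and chr5:24601953-24602252 (minus) for Smarcd3.
Smarca4: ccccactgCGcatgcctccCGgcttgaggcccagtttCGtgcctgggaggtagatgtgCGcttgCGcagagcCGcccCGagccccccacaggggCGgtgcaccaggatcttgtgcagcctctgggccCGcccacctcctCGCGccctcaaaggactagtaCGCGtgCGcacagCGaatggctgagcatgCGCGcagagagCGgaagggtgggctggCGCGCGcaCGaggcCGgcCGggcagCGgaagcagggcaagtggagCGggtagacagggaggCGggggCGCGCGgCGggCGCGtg
Smarca2: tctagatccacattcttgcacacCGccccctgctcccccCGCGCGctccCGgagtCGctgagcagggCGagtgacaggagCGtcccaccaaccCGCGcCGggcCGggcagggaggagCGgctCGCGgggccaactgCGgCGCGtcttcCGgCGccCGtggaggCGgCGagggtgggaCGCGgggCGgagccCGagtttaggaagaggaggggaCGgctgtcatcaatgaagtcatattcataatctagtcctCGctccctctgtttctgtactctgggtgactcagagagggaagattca
Smarcd1: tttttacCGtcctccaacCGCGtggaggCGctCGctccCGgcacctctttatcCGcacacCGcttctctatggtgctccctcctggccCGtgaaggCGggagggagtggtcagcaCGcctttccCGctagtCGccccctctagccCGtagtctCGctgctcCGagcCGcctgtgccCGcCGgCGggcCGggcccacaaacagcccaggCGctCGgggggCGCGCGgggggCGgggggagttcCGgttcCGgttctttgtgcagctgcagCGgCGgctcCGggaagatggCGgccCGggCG
Smarcd3: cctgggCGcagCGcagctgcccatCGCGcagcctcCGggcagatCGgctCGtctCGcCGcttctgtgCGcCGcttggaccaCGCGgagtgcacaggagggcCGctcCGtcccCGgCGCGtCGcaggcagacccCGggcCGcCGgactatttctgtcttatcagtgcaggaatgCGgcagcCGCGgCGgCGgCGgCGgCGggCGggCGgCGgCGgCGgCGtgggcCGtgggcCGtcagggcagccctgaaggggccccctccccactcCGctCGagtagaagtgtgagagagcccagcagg
All 4 windows were rich in CG, the dinucleotide that methylation acts on in mammals. They held 33, 29, 35 and 40 CG in this order, beside a median of 7 over 32851 promoters of the same length. At least as many were found in 8.56%, 12.9%, 6.95% and 3.91% of all promoters. Searched on both strands, the letters GGGCGG (a GC box, in 35.7% of all promoters) occurred 3, 2, 1 and 2 times. TATAAA (13.6%) and CCAAT (37.4%) occurred in none of the 4. High and low partners were therefore alike in these letters, and no methylation or binding was measured here.

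Among the other BAF genes, Smarce1, a DNA-binding subunit, was higher in 16-6 (76.2 and 75.8 FPKM) and in 32 (79.2 and 84.4) than in R1 (51.0 and 52.4), by 0.55 (SE 0.0437) and 0.65 (SE 0.0437, limma adjusted p = 0.000632 and 0.000307). Arid2 was higher than in R1 (26.6 and 26.5 FPKM) in 16-6 (34.1 and 35.9), 32 (38.7 and 39.1) and T2 (46.5), and stood at 28.6 in S8 (adjusted p = 0.123). Its S8 difference was 0.86 relative to genes of like length. Smarcb1, a core subunit, was higher in all 4 iPSC lines, from 0.17 in 16-6 to 0.90 in S8, where it measured 134 FPKM against 70.0 and 72.6 in R1. Its difference fell as low as 0.15 in 16-6 and 0.06 in 32 over the alternatives, and these 2 lines did not pass the test under all of them. Counted over the complex, 13 BAF genes were tested, and 16-6 was higher for 4 and lower for 3 (25.7% and 29.9% of all genes). In 32 the counts were 7 and 3 (28.6% and 32.9%), in S8 6 and 5 (32.1% and 34.6%), and in T2 7 and 1 (27.0% and 30.9%). Under own-total scaling these became 3 higher and 3 lower in 32 and 4 higher and 6 lower in S8. Their median difference from R1 was 0.03, 0.13, 0.10 and 0.29, beside -0.03, -0.02, -0.03 and -0.03 over all genes.

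In the ISWI group, the ATPase Smarca5 (SNF2H) was far above its paralogue Smarca1 (SNF2L), with 128 and 129 FPKM in R1 against 7.58 and 7.71. Smarca5 was lower than R1 in 16-6 (98.7 and 101, difference -0.36, SE 0.0450, limma adjusted p = 0.00236) and in S8 (99.2, -0.37, SE 0.0551, adjusted p = 0.00301). After the median of all genes of like transcript length was subtracted, an alternative chosen after seeing the data, its S8 difference did not pass the test (0.0006, adjusted p = 0.991). Smarca1 was lower in 16-6 (5.63 and 5.77 FPKM) and 32 (6.02 and 5.74) and higher in T2 (10.97). The ratio of Smarca5 to Smarca1 lay between 10.4 in T2 and 23.0 ± 1.91 (SD, n = 2) in 32. The row of Smarca5-ps, a processed copy that shares sequence with Smarca5, measured 1.20 to 2.73 FPKM and is uncertain, since reads of either gene could be assigned to it.

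Baz1a, the ACF1 partner of Smarca5, measured 12.1 and 11.8 FPKM in R1, 23.5 and 21.8 in 16-6, 17.7 and 18.0 in 32, 8.38 in S8 and 15.8 in T2. All 16-6 and 32 libraries and T2 lay above R1, and S8 lay below. The difference from R1 was 0.87 in 16-6 (SE 0.0531, limma adjusted p = 0.000332) and -0.47 in S8 (SE 0.0650, adjusted p = 0.00227). The S8 call ended relative to genes of like length (-0.0043, adjusted p = 0.961). Baz2b, a bromodomain partner, was lower in every iPSC line. It stood at 8.41 and 7.90 FPKM in R1, 6.16 and 5.95 in 16-6, 6.01 and 5.77 in 32, 2.00 in S8 and 4.69 in T2. The S8 value lay under all others, 3.05-fold below R1 (-1.61, SE 0.0735, adjusted p = 0.000117). Baz2a (TIP5), which silences ribosomal DNA, was lower in all 4 lines too, from -0.28 in 32 to -0.99 in S8. Baz1b (WSTF), which joins Smarca5 at replicating DNA, ranged from 38.2 FPKM in S8 to 62.7 in 32, where it was higher than R1 by 0.53. Bptf, the large subunit of NURF, showed 44.5 to 59.3 FPKM over the libraries and was lower than R1 in S8 (-0.28, adjusted p = 0.00695). Relative to genes of like length this turned to 0.48 (adjusted p = 0.000664), and 32 (0.16, adjusted p = 0.0186) and T2 (0.31, adjusted p = 0.00392) passed the test as well. Over the 7 ISWI genes, 16-6 was higher for 2 and lower for 4 (25.7% and 29.9% of all genes), 32 for 2 and 3 (28.6% and 32.9%), and T2 for 3 and 3 (27.0% and 30.9%). S8 was higher for none and lower for 5 (32.1% and 34.6%), which became 3 higher and 2 lower relative to genes of like length.

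CHD genes ranged from 1.47 FPKM for Chd5, a neural member, to 175 FPKM for Chd4 as means of the 5 lines. Chd4 is the ATPase of NuRD and Chd3 its less abundant paralogue. Chd3 (mm9 chr11:69156775-69182928) was highest in 16-6. It measured 8.59 and 9.31 FPKM in R1, 16.3 and 16.8 in 16-6, 8.67 and 9.25 in 32, 5.44 in S8 and 7.87 in T2. Both 16-6 libraries lay above all others, by 0.82 over R1 (SE 0.0622, limma adjusted p = 0.000548) and by 0.82 over 32 (SE 0.0622, adjusted p = 0.000363). In 32 the gene stood at 0.00 from R1 (SE 0.0622, adjusted p = 0.992). Chd4 was 143 and 147 FPKM in R1, 152 and 152 in 16-6, 181 and 184 in 32, 179.8 in S8 and 217 in T2. It was higher than R1 in 32 (0.33), S8 (0.31) and T2 (0.58, SE 0.0413, adjusted p = 0.000544). Over the alternatives the S8 difference of Chd4 ran from 0.04 to 0.77, and under own-total scaling it did not pass the test. The ratio of Chd4 to Chd3 was 9.19 ± 0.172 in 16-6, 16.2 ± 0.669 in R1, 20.4 ± 0.662 in 32 (SD, n = 2 each), 27.6 in T2 and 33.0 in S8.

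Chd9 (mm9 chr8:93352734-93578407) gave the only 2-fold difference between S8 and T2 (2.75% of all genes). Its level was 31.1 and 29.9 FPKM in R1, 20.5 and 21.1 in 16-6, 18.2 and 20.6 in 32, 13.3 in S8 and 29.1 in T2. T2 lay just under R1, the 16-6 and 32 libraries lay together in the middle, and S8 lay lowest. S8 was lower than R1 (-1.14, SE 0.0813, limma adjusted p = 0.000290) and lower than T2 (-1.08, SE 0.0938, adjusted p = 0.00304), while T2 stood at -0.07 from R1 (adjusted p = 0.525). Chd2 followed another order, with 22.2 and 20.5 FPKM in R1, 16.0 and 15.8 in 16-6, 18.2 and 18.4 in 32, 9.01 in S8 and 11.9 in T2. It was lower than R1 in all 4 iPSC lines, from -0.21 in 32 (adjusted p = 0.0175, or 0.183 relative to genes of like length) to -1.16 in S8 (SE 0.0628, adjusted p = 0.000157). Chd1, which reads the mark of active promoters and is known for the open chromatin of ESCs, was higher in 32 (70.3 and 71.2 FPKM, against 53.9 and 54.0 in R1) by 0.39 (SE 0.0339, adjusted p = 0.000669) and lower in S8 (35.3 FPKM), at -0.60 (SE 0.0415). Relative to genes of like length the S8 difference turned to 0.16 (adjusted p = 0.0185). Chd7, which binds enhancers, was higher in all 4 lines, with 27.5 FPKM in T2 against 15.6 and 15.6 in R1 (0.78, SE 0.0544, adjusted p = 0.000515). In S8 its difference was 0.17 (adjusted p = 0.0420), which turned to -0.08 under own-total scaling and was 0.93 relative to genes of like length. Chd5 was lower in all 4 lines, from 2.40 and 2.27 FPKM in R1 to 0.964 and 1.01 in 32. Relative to genes of like length its difference turned to 0.28 in S8 and was -0.19 in T2, and neither passed the test. Chd6 and Chd8, both of the Chd7 group of enzymes, ranged from 9.22 to 16.8 and from 33.2 to 41.4 FPKM. Line 16-6 was higher for 2 and lower for 4 of the 9 CHD genes (25.7% and 29.9% of all genes). In 32 the counts were 4 and 3 (28.6% and 32.9%), in S8 2 and 7 (32.1% and 34.6%), and in T2 3 and 2 (27.0% and 30.9%). Under own-total scaling 32 had 3 higher and 5 lower and S8 had 0 higher and 7 lower.

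INO80 genes were mostly higher than R1 in line 32. In this line, 6 of 8 were higher than R1 (28.6% of all genes were) and 1, the ATPase Ino80 itself, was lower, with a median difference of 0.47. Under own-total and quantile scaling 5 were higher and 1 lower, with Ruvbl2 at -0.02 and -0.04. S8 was higher for 5 and lower for 3 (32.1% and 34.6% of all genes), with a median of 0.51. That median was 0.30 relative to genes of like length. T2 was higher for 4 and lower for 1 (27.0% and 30.9%), and 16-6 for 2 and 2 (25.7% and 29.9%). In the comparison of 16-6 with 32, all 8 were lower in 16-6 (32.9% of all genes), with a median of -0.37 and single differences from -0.24 for Ep400 to -0.70 for Ino80c. Lower calls in 16-6 were common in other groups too, with 23 of the 40 members and, of the lists outside the name rule, 11 of 12 further SNF2-family enzymes and 14 of 20 partners of INO80, SRCAP and EP400. With each library scaled to its own total, 4 of the 8 were lower and the median was -0.18, and no member of the complex was above 0 under any scaling. Ino80c measured 18.6 and 17.7 FPKM in R1, 22.7 and 21.9 in 16-6, 35.3 and 38.3 in 32, 23.4 in S8 and 22.9 in T2. Both libraries of 32 lay above all others, by 0.98 over R1 (SE 0.0565, limma adjusted p = 0.000207). Without replicate 1 of either R1 or 32 this difference passed 2-fold. The AAA+ helicases Ruvbl1 and Ruvbl2, shared by INO80, SRCAP and EP400 complexes, kept a ratio of 0.434 to 0.534 in all lines. Ep400, the ATPase of the complex that shares them, was lower than R1 (24.2 and 25.6 FPKM) in 16-6 (21.8 and 22.0) and S8 (15.8), neither of which passed the test relative to genes of like length. Ino80b, a small subunit, ranged from 15.1 FPKM in R1 to 27.1 in S8. Ruvbl1 and Ruvbl2 were highest in S8, at 149 and 343 FPKM, against 93.1 and 94.4 for Ruvbl1 and 209.7 and 213 for Ruvbl2 in R1.

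Ino80 (mm9 chr2:119198779-119303365) was lower than R1 in every iPSC line, unlike most of its partners. It measured 32.4 and 31.6 FPKM in R1, 19.3 and 20.4 in 16-6, 25.4 and 27.5 in 32, 21.7 in S8 and 21.5 in T2. Every iPSC library lay below both R1 libraries. The difference from R1 was -0.66 in 16-6 (SE 0.0571, limma adjusted p = 0.000768), -0.27 in 32 (SE 0.0571, adjusted p = 0.0117), -0.54 in S8 (SE 0.0699, adjusted p = 0.00180) and -0.55 in T2 (SE 0.0699, adjusted p = 0.00242). Relative to genes of like length S8 did not pass the test (-0.07, adjusted p = 0.357), and without replicate 1 of R1 neither did 32 (-0.25, adjusted p = 0.0602). Ino80e, a small subunit of the mammalian complex, ran the other way. It stood at 66.9 and 61.5 FPKM in R1, 62.3 and 63.2 in 16-6, 89.9 and 89.2 in 32, 132 in S8 and 82.8 in T2. S8 lay highest, 2.03-fold above R1 (1.03, SE 0.0596, adjusted p = 0.000176), and leaving out replicate 2 of R1 took this gene and Smarcd3 below 2-fold in S8. On the opposite strand Doc2a shares 20.5% of its exon bases and was itself 21.7 FPKM in S8 against 5.13 and 5.76 in R1. Opposite-strand genes also share exon bases with Actl6a (16.2%, Mrpl47) and Ruvbl2 (12.1%, Gys1). Ino80d, also a subunit of the complex and its lowest member, was higher in 32 (16.7 and 17.9 FPKM against 10.4 and 10.8 in R1) and lower in S8 (5.99 FPKM), by 0.66 and -0.73 (SE 0.0570 and 0.0698, adjusted p = 0.000645 and 0.000663). Relative to genes of like length its S8 difference was 0.03 (adjusted p = 0.731).

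S8 stood apart in a way that followed transcript length. It was the lowest line for 17 of 39 members and the highest for 8, whereas T2 was lowest for 1 and highest for 10. The matching shares of all genes are not given here. Over all genes the median absolute difference from R1 was 0.47 in S8, against 0.29 in 16-6, 0.32 in 32 and 0.36 in T2. Here length is that of the longest coding transcript of a gene in the annotation, 39 members having one, and remodelling enzymes are among the longer proteins of the nucleus. In S8 against R1, 10 of 12 members up to 3200 bases were higher, with a median of 0.66. Of all genes of that length 43.7% were higher, with a median of 0.19. In 32, 10 of the 12 were higher too (31.7% of all such genes), with a median of 0.31. In T2, 8 were higher (29.6%), and in 16-6, 4 (24.8%). Of the 22 members over 6000 bases, 16 were lower in S8, with a median of -0.51, beside 73.4% and -0.61 for all genes of that length. In 16-6, 32 and T2, 9, 6 and 6 of them were lower (33.2%, 39.8% and 42.2%). The order of S8 held against T2 as well, where 18 of 22 long members were lower and none higher, beside 67.5% and 1.16% of all genes of that length. Across genes, Spearman's rho of the S8 to R1 difference with length was -0.621 over the 39 members and -0.346 over 12444 genes, and against T2 it was -0.788 and -0.568. In 16-6, 32 and T2 against R1, rho was -0.106, -0.215 and -0.238 over the members. These genes share the libraries, so the values are a description.

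**Figure D3:**
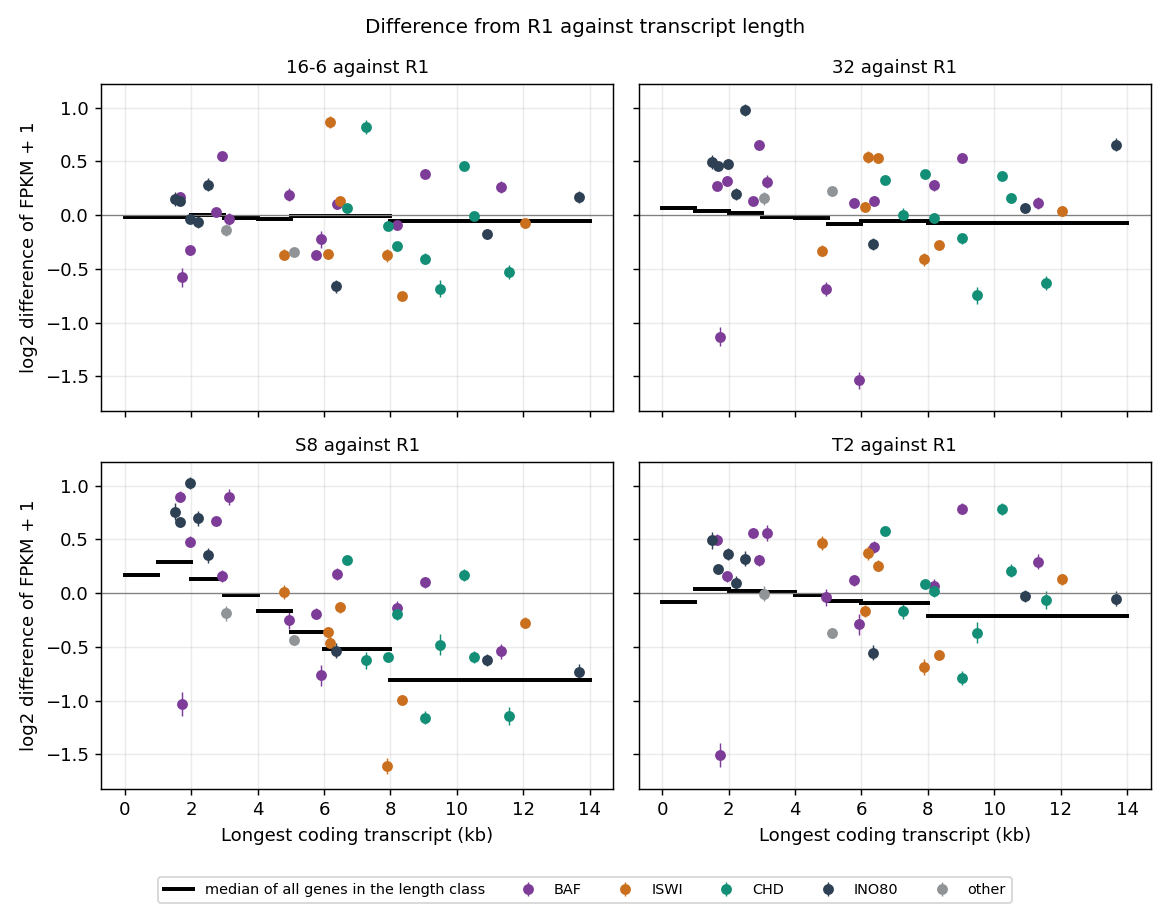
Difference from R1 in log2(FPKM + 1), with its standard error, against the longest coding transcript in kilobases for 39 remodelling genes in each iPSC line, coloured by complex, with black steps for the median of all genes in a length class. In S8 the black steps and the coloured points fall together from short to long transcripts, and in the other 3 lines the steps stay close to 0 up to 8 kb.

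After the median of all genes of like length was subtracted within 20 bins, S8 against R1 kept Smarcd3 as the only 2-fold difference (-1.30, limma adjusted p = 0.000383). Baz2b was then at -0.85, Chd2 at -0.40, Chd9 at -0.385 and Ino80e at 0.79, each with an adjusted p under 0.05. The split over the members turned from 13 higher and 22 lower to 20 higher and 9 lower. Calls ended for 11 members (Baz1a, Chd3, Chd5, Chd6, Ep400, Ino80, Ino80c, Ino80d, Smarca5, Smarcc2 and Smarce1), and 5 passed the test in the opposite direction (Arid1b, Bptf, Chd1, Chd8 and Smarcc1). Another 5 were called only after centring, with Arid1a, Arid2, Baz1b and Smarca1 higher and Smarcal1 lower. The CHD genes went from 2 higher and 7 lower to 4 higher and 2 lower, and the ISWI genes from 5 lower to 3 higher and 2 lower. For T2 and the iPSC average the split became 22 higher and 7 lower, and 24 higher and 10 lower. After centring 64.1%, 58.3% and 64.6% of all genes differed in S8, T2 and the iPSC average. Their shares higher and lower are not given here. In S8 against T2, 28 members differed (34.5% of all genes) before centring, with 7 higher (16.9%) and 21 lower (17.6%), or 2 and 27 on own totals. After centring 10 differed (19.4% of all genes), with 8 higher and 2 lower, and none 2-fold. Whether the pattern belongs to the cells or to the 1 library of S8 cannot be told apart.

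The 2 mesoderm-derived lines could be compared with 2 libraries each. Of 40 members, 28 differed between 16-6 and 32 (60.4% of all genes), of which 5 were higher (27.5%) and 23 lower in 16-6. At least 2-fold apart was Smarca2 alone (10.3% of all genes), higher in 16-6 by 1.31 (SE 0.0791, limma adjusted p = 0.000180). The next largest were Smarcc2 at 0.88 (SE 0.0634, adjusted p = 0.000306) and Chd3 at 0.82, both higher in 16-6, and Ino80c at -0.70 and Actl6a at -0.65, both lower. Under own-total scaling Smarcc2 and Chd3 passed 2-fold as well, and the split became 10 higher and 11 lower. Smarcad1, an enzyme of silent chromatin, was lower in 16-6 (65.5 and 68.2 FPKM) than in 32 (97.8 and 101) (-0.56, SE 0.0383, adjusted p = 0.000260). Smarcal1, an annealing helicase, differed by -0.30 (adjusted p = 0.00848).

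Fibroblast markers differed along with these lines. All 12 were at least 2-fold lower in 32 than in R1 and at least 2-fold higher in 16-6 than in 32, with Dcn (decorin) at 217 and 204 FPKM in R1, 32.9 and 33.3 in 16-6 and 0.605 and 0.890 in 32. Their mean log2(FPKM + 1) was 6.02 and 6.14 in R1, 6.51 and 6.54 in 16-6, 2.33 and 2.38 in 32, 4.36 in S8 and 4.76 in T2. Against R1, 8 were higher and 3 lower in 16-6, 11 were lower in S8, and 2 were higher and 10 lower in T2. Of the 8 pluripotency markers, all were lower than R1 in 16-6, 2 were higher and 2 lower in 32, 2 and 3 in S8, and 2 and 4 in T2. Zfp42 (Rex1), a marker of naive ESCs, measured 541 and 544 FPKM in R1, 141 and 144 in 16-6, 258 and 277 in 32, 119 in S8 and 92.9 in T2. Smarca2 and Smarcc2 were lowest in 32, where the fibroblast markers were lowest. Smarcd3 was lowest in T2 and lower than R1 in 16-6. The markers did not move together in 16-6, where Col1a1 and Col1a2, fibrillar collagen genes, were higher than R1 while Dcn and Lum, which encode small proteoglycans, were lower, with Lum at 7.08 and 7.91 FPKM in 16-6 against 50.6 and 59.2 in R1. Fewer cells of a type and less RNA per cell cannot be told apart in RNA of a whole culture, and the part of feeder cells in these results was not tested.

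**Figure D4:**
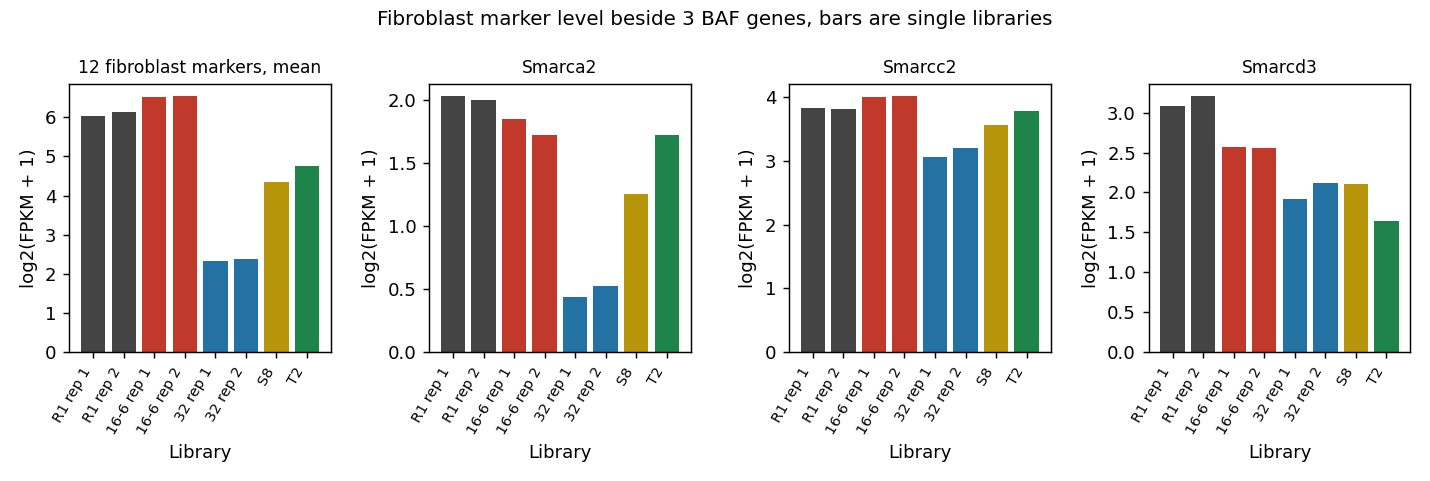
Bars of log2(FPKM + 1), each from 0 and each 1 library, for the mean of 12 fibroblast markers and for Smarca2, Smarcc2 and Smarcd3. The marker mean is lowest in line 32 (2.33 and 2.38), as are Smarca2 and Smarcc2, and Smarcd3 is lowest in T2.

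Partners outside the name rule were counted by complex. Their values, and those of the further SNF2-family enzymes, are not centred by transcript length. In S8, 43.7% of all genes up to 3200 bases were higher than R1 and 73.4% of those over 6000 bases were lower. The part of length in the S8 differences of these lists was not tested. Over all genes, the shares higher and lower than R1 were 25.7% and 29.9% in 16-6, 28.6% and 32.9% in 32, 32.1% and 34.6% in S8, and 27.0% and 30.9% in T2. Of 14 tested BAF partners, 6 were higher than R1 and 3 lower in 16-6, 5 and 0 in 32, 7 and 2 in S8, and 7 and 1 in T2. Bcl11a, a transcription factor found with BAF, was at 0.715 and 1.04 FPKM in R1, 1.97 and 2.16 in 16-6, 1.09 and 1.20 in 32, 9.31 in S8 and 4.81 in T2, the largest partner difference in S8 (2.46, SE 0.130, limma adjusted p = 0.000150). Bcl7c, another BAF subunit, reached 55.8 FPKM in S8 and 33.4 in T2 against 14.8 and 14.6 in R1. Of the 7 ISWI partners, 2 were higher and 3 lower in 16-6, 4 and 1 in 32, 3 and 4 in S8, and 1 and 3 in T2. None of them passed 2-fold, and Rbbp4 and Rbbp7, which bind histones, are counted with NuRD too.

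Of 11 NuRD partners, 5 were higher and 4 lower than R1 in 16-6, 5 and 1 in 32, 8 and 2 in S8, and 6 and 2 in T2. Mbd3, the methyl-binding-domain subunit that holds NuRD together, measured 61.5 and 72.8 FPKM in R1, 93.2 and 94.0 in 16-6, 103 and 100.2 in 32, 203 in S8 and 123 in T2. It was higher in S8 by 1.59 (SE 0.101, limma adjusted p = 0.000217). Gatad2b, another NuRD subunit, was lower in S8 (17.0 FPKM against 54.3 and 54.1 in R1), at -1.61 (SE 0.0515, adjusted p = 7.04e-05), and Mta3 was higher by 1.02 (SE 0.0610, adjusted p = 0.000184). Of 20 tested partners of INO80, SRCAP and EP400, 3 were higher and 6 lower in 16-6, 10 and 1 in 32, 12 and 7 in S8, and 6 and 6 in T2. The factor Yy1, a subunit of INO80, was higher in S8 (86.4 FPKM) and T2 (83.6) than in R1 (33.6 and 41.2), by 1.19 and 1.15. Between 16-6 and 32, 14 of the 20 were lower in 16-6 and none higher, beside 32.9% and 27.5% of all genes. Among 12 further SNF2-family enzymes, none was higher and 7 were lower than R1 in 16-6, 6 and 3 in 32, 1 and 7 in S8, and 3 and 4 in T2, and 11 were lower in 16-6 than in 32. Atrx, a remodeller of heterochromatin, measured 83.6 and 79.4 FPKM in R1, 73.4 and 74.2 in 16-6, 117 and 125 in 32, 29.5 in S8 and 54.7 in T2.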

How the data were processed

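RNA-Seq was available for 8 libraries, grouped by line from the sample labels. Per the study's methods, oligo(dT)-selected RNA was sequenced in pairs on a HiSeq 2000, mapped to mm9 with TopHat 2.0.4 and summarised over UCSC genes with Cufflinks 2.0.2, while the submitters' processing notes name Cufflinks 2.0.0. The deposited files hold FPKM computed by the authors with confidence limits, not counts. The deposited FPKM summed to 1.14408e+10 to 1.60283e+10 per library and were divided by 12725.7, which set the median total to 1000000. The number of fragments behind a value was estimated from its confidence limits. These estimates are not exact counts. Smarcb1, for example, had 2060 and 1230 in the R1 libraries at 70.0 and 72.6 FPKM.

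Those 13693 genes that reached an FPKM of 1 in any library entered limma 3.58.1 (lmFit, eBayes with a trend, R 4.3.3) on log2(FPKM + 1), a pseudocount of 1, with 5 groups and 3 residual degrees of freedom, and 7 contrasts were adjusted by Benjamini-Hochberg over all genes. Genes differ at an adjusted p under 0.05, and at least 2-fold at an absolute log2 difference of 1 or more. An exact permutation test of 2 against 2 libraries cannot give a p under 0.33 and was not used. Counts, ratios and figures were made in Python 3.11.15 (scipy 1.17.1, numpy 2.4.6, pandas 2.3.3). The fit was tested on simulated data. Coordinates are mm9, counted from 1. Transcript lengths came from GENCODE on the same build, and promoters from RefSeq on GRCm38.p6.

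The members, the complexes, the partner and marker lists and the tests were chosen with earlier results of these data known. Named members were those at least 2-fold different in any contrast, the ATPases, the paralogue pairs, and the highest and lowest member of each complex, and of each other list up to 3 genes with the largest 2-fold difference from R1. Arid2, Baz1a, Baz2a, Bptf, Ino80b, Ino80c, Smarcad1, Smarcal1, Smarcb1, Smarce1, Smarca5-ps, Chd6, Chd8 and Baz1b lay outside this rule or were named after their values were seen. Of the partner lists, Gltscr1l and Mrgbp had no row by that name in the files used here, and Dpf3 stayed under 1 FPKM and was not tested. Replicate pairs differed by 1.34, 1.08 and 1.29 times the counting variance in R1, 16-6 and 32. The 16-6 pair lay closest to counting error alone, and these values cannot show whether libraries came from separate cultures. Each library was kept as 1 sample. Alternatives were the pseudocount, the filter on low values, 3 other scalings, eBayes without a trend, leaving out single libraries, the mean of the 16-6 replicates as 1 sample, a replicate block, and the iPSC mean without S8 and T2. Chosen after seeing the data were centring by transcript length, and leaving out S8 and T2 for single genes and the F test.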

Additional observations from a re-analysis of the deposited data

Results flagged for a closer look

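Differences between 2 iPSC lines were tested against no difference, and 2 members that passed had an estimate of at least 2-fold. Smarca2 was higher in 16-6 than in 32, both mesoderm-derived, by 1.31 in log2(FPKM + 1) (SE 0.0791, limma adjusted p = 0.000180), with all 4 libraries of these lines on their own side, and the lowest value over the alternatives was 0.97. Chd9 was lower in S8 than in T2, at -1.08 (SE 0.0938, limma adjusted p = 0.00304), with 1 library in each line, and stood at -0.50 (adjusted p = 0.0158) relative to genes of like length. Fibroblast markers differed together with the first and transcript length with the second, as given in the report, and their part was not tested.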

How the results depend on the processing

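Counts of members that differed at an adjusted p under 0.05 (limma) stayed within 1.5 times of their value under all alternatives but 1, S8 against T2 with length-centred values, where 28 became 10. Leaving out single libraries gave 19 to 26 members in 16-6, 27 to 28 in 32, 29 to 35 in S8, 23 to 26 in T2, 26 to 30 for the iPSC mean, 22 to 28 between 16-6 and 32, 24 to 30 between S8 and T2, and 39 to 40 over the 5 lines. With the mean of the 16-6 replicates as 1 sample, the counts were 19 in 16-6, 28 in 32, 31 in S8, 24 in T2, 28 for the iPSC mean, 24 between 16-6 and 32, 25 between S8 and T2 and 39 over the 5 lines, and no 2-fold count changed. The 2-fold counts are small and moved more. With a pseudocount of 0.1 they became 1 in 16-6 (Chd5), 4 in 32, 7 in S8, 2 in T2, 2 for the iPSC mean and 2 for S8 against T2, the last also with 0.5. With an FPKM of at least 1 asked of every library, which removes Smarca2, they became 1 in 32 and 0 for 16-6 against 32. Quantile normalization gave 1 in 32, 4 in S8, 0 for the iPSC mean and 0 for 16-6 against 32. Median-of-ratios size factors gave 3 in 32. Own totals gave 3 and 5 for 16-6 against 32 and S8 against T2. Length-centring gave 1 for S8 against R1 and 0 for S8 against T2. Leaving out single libraries gave 3 to 6 in S8 (3 without replicate 2 of R1), 2 to 3 in 32, and otherwise the reported count. The iPSC mean without S8 and T2 gave 0. The cause was not tested.

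Directions turned as follows, with the log2 difference under each alternative. On own totals, in 32 against R1, Chd6 was -0.0432, Ruvbl2 -0.0175 and Smarcd2 -0.0796. In S8 they were -0.0775 for Chd7, -0.0799 for Smarca4 and -0.0979 for Smarce1, and for 16-6 against 32 they were 0.0467 for Arid2 and 0.028 for Chd6. Quantile normalization gave -0.0429 for Ruvbl2 in 32, and -0.0465 for Smarca4 and -0.0264 for Smarce1 in S8. Without S8 and T2, Actl6a in the iPSC mean was -0.0054. Length-centring in S8 against R1 gave 0.22 for Arid1b, 0.48 for Bptf, 0.16 for Chd1, 0.28 for Chd5, 0.16 for Chd6, 0.56 for Chd8, 0.14 for Ep400, 0.0265 for Ino80d, 0.0006 for Smarca5, 0.18 for Smarcc1 and 0.0414 for Smarcc2. For the iPSC mean it gave 0.17 for Chd8 and 0.10 for Ep400. For S8 against T2 it gave 0.0104 for Baz1b, 0.16 for Baz2a, 0.175 for Bptf, 0.21 for Chd2, 0.13 for Chd4, 0.37 for Chd8, 0.14 for Smarca4 and 0.0112 for Smarcc1.

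Samples of R1, 16-6 and 32 share only a replicate number. Deviations of same-numbered libraries correlated at -0.0969, 0.00102 and 0.0282, so the numbers were not taken as pairs. With the replicate number as a block the counts were 25 in 16-6, 30 in 32 and 27 for 16-6 against 32, against 26, 31 and 28 from the same 6 libraries without it, and no 2-fold count changed. Smarca2, Smarcd3 and Chd5 were low, with 15.6, 53.0 and 70.4 implied fragments in their lowest library, which are estimates and not counts. S8 and T2 had no replicate.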
